A study of Mus musculus with 11 samples.

Results

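Adventitial progenitor fibroblasts are mesenchymal cells of the connective tissue around vessels and ducts that carry *Pi16* and *Dpp4* and are described in mice as a source of more specialised fibroblasts. Their expression was followed here through 10 marker genes, *Pi16*, *Dpp4*, *Cd34*, *Sema3c*, *Cd55*, *Anxa3*, *Ly6a*, *Ackr3*, *Clec3b* and *Pi15*. A marker was taken as measured where a probe set of the array named it and no other gene, and the brightest such probe set was kept. By this rule 9 of the 10 markers were measured, each with 1 probe set, out of 19938 genes. *Ly6a*, which encodes the surface antigen Sca-1, had no probe set of its own here and is skipped.

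The arrays held RNA of fibroblasts sorted directly from the mammary tissue of female FVB/n mice. Normal glands came from non-transgenic mice aged 8 weeks (2 arrays, D2 and D5). The other 3 stages came from MMTV-PyMT mice, in which the MMTV promoter drives the polyoma middle T oncogene in the mammary epithelium, so the sorted fibroblasts are not the cells the transgene targets. They were hyperplasia at 4 weeks (3 arrays, D6, D7 and D12), carcinoma at 9 weeks (3 arrays, D3, D4 and D10) and advanced carcinoma, labelled as late carcinoma, at 12 weeks (3 arrays, D8, D9 and D11). Each array was 1 cohort of pooled mice. The gate kept CD140a+ cells without the product of *Adgre1*, a macrophage surface antigen, and the labels add EpCAM-. Age and stage cannot be told apart in this design. Carcinoma and advanced carcinoma together, 6 arrays, are called cancer-associated fibroblasts (CAFs) and were set against normal and hyperplasia together, 5 arrays.

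Several of these markers are secreted or sit on the cell surface. Pi16 and Pi15 are CAP-domain proteins named as peptidase inhibitors, Dpp4 trims peptides such as chemokines, and Cd55 protects cells from complement. Ackr3 is an atypical chemokine receptor that takes up Cxcl12, Sema3c is a secreted semaphorin that signals through neuropilins and plexins, and Clec3b (tetranectin) binds plasminogen. Cd34 is a sialomucin of progenitor and endothelial cells, and Anxa3 is a phospholipid-binding annexin.

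RefSeq promoters (GRCm38.p6, 250 bases before to 50 after the gene start) were given for 6 of the 9 measured markers, *Pi16*, *Dpp4*, *Cd34*, *Sema3c*, *Cd55* and *Ackr3*. The 3 printed here are that of *Pi16*, the gene that names the state, and those of *Sema3c* and *Ackr3*, which stayed lower in CAFs on both scales described further on. Capitals mark matches, on either strand, to the TATA-box core TATAAA, the box known as CCAAT, the GC-box core GGGCGG and a pair of E-boxes, CAGCTG and its relative CAGATG. The *Pi16* window lies at chr17:29318632-29318931 (plus strand), that of *Sema3c* at chr5:17574566-17574865 (plus strand) and that of *Ackr3* at chr1:90203730-90204029 (plus strand).
Pi16: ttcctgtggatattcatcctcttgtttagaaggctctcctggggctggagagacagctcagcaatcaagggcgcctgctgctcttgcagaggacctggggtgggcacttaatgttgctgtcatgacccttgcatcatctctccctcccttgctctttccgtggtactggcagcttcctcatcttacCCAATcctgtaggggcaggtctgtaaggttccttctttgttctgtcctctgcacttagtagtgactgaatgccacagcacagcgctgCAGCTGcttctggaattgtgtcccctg
Sema3c: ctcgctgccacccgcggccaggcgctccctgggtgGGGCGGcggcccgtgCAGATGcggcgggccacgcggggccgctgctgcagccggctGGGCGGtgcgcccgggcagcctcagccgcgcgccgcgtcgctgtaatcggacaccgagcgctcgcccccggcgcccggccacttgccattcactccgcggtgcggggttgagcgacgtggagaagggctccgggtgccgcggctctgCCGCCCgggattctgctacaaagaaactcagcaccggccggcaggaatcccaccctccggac
Ackr3: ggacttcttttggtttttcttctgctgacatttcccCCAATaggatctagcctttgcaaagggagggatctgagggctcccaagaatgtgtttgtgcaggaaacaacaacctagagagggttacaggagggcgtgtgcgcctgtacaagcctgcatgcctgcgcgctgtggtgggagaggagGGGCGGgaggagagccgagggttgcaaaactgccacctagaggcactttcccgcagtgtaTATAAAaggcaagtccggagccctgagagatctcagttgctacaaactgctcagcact

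No searched motif was shared by all 6 windows. TATAAA lay in the windows of *Ackr3* and *Dpp4* and in 14.2% of all 27025 promoters of the same length, and CCAAT lay in those of *Ackr3* and *Pi16* and in 37.9% of all. GGGCGG lay in the windows of *Ackr3*, *Cd55* and *Sema3c* (35.9% of all), CAGCTG in those of *Cd55* and *Pi16* (16.1%) and CAGATG in that of *Sema3c* (17.2%). The AP-1 motif TGANTCA, present in 7.93% of all promoters, had no match in these 6 windows. The matches are descriptions of letters in a window and did not overlap one another in the 3 printed windows.

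Before the markers are compared, 2 features of the arrays need stating. Array D2 of normal glands and array D11 of advanced carcinoma are tied: added together, they give 2 times the average of the remaining 9 arrays in each probe set (median gap 3.33e-06). The 11 arrays thus hold 10 independent columns, and no step named in the methods accounts for it. Comparisons were therefore also fitted with a tie term for this pair. Carcinoma D4 stood apart in genes that most fibroblasts share. The mean of 16 pan-fibroblast genes (among them *Pdgfra*, *Dcn* and *Col1a1*) was 9.29 log2 units in carcinoma D4, against 10.67 to 10.87 in the other 5 CAF arrays and 10.71 to 11.11 in the 5 normal and hyperplasia arrays. *Pdgfra*, which encodes the CD140a used for sorting, was at 9.21 in carcinoma D4, 10.50 to 11.01 in the other CAF arrays and 10.80 to 11.35 in normal and hyperplasia arrays. All values are log2 expression after the authors' normalization, and levels are not compared between genes, since each gene is read by its own probes.

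To ask whether the adventitial progenitor markers differed between CAFs and the fibroblasts of normal and hyperplastic glands, the 6 and 5 arrays were compared in a fit over all genes. All 9 measured markers were lower in CAFs (limma, adjusted p under 0.05), where 12.8% of all genes were lower and 12% were higher. The differences ran from -2.67 log2 units for *Pi15*, a level 6.37-fold lower, to -0.82 for *Cd34*, 1.77-fold lower. The median of the 9 differences was -1.23, and that of all genes was -0.04. In sorted bulk RNA, fewer progenitor cells in the sort and less of these transcripts per cell cannot be told apart. With the tie term the count was again 9 of 9. The sum of the tied pair is fixed by the other 9 arrays. For every gene of this comparison the term therefore left the difference nearly unchanged by construction (*Pi15* at -2.68, *Cd34* at -0.82). It altered mainly the estimate of the spread, so counts with the term are no separate check on the differences between these 2 groups.

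**Figure D1:**
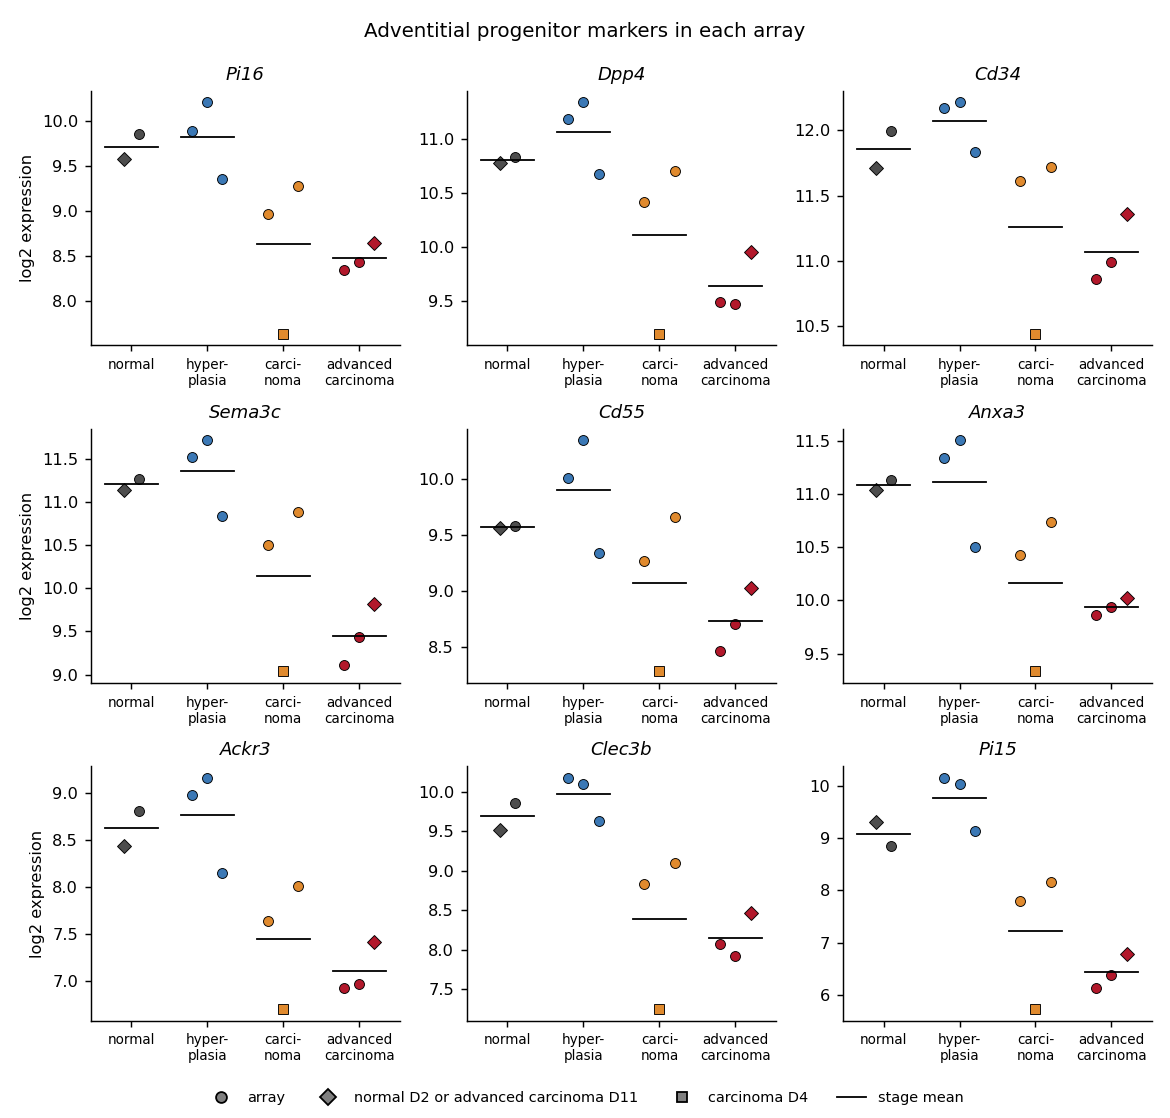
Log2 expression (y axis) of the 9 measured markers in each of the 11 arrays, by stage (x axis), with a line at each stage mean. Diamonds are normal D2 and advanced carcinoma D11, and the square is carcinoma D4, the lowest array in all 9 panels. The 3 advanced carcinoma arrays lie below the 5 normal and hyperplasia arrays in every panel.

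Among the CAP-domain proteins, *Pi15* had the widest range. It measured 9.31 and 8.84 in normal arrays D2 and D5, 10.16, 10.04 and 9.14 in hyperplasia D6, D7 and D12, 7.80, 5.73 and 8.16 in carcinoma D3, D4 and D10, and 6.13, 6.38 and 6.77 in advanced carcinoma D8, D9 and D11. Every CAF array was below every normal and hyperplasia array. *Pi15* averaged 6.83 ± 0.96 over the 6 CAF arrays and 9.50 ± 0.57 over the 5 others (means ± SD), and the difference of -2.67 (SE 0.44) had a limma adjusted p of 0.0020. *Pi16* measured 9.57 and 9.85 in normal arrays, 9.89, 10.21 and 9.36 in hyperplasia, 8.97, 7.63 and 9.27 in carcinoma, and 8.34, 8.43 and 8.64 in advanced carcinoma. Here too the CAF arrays lay below all others, although carcinoma D10 and hyperplasia D12 were close, at 9.27 and 9.36. Its mean was 8.55 ± 0.57 in CAFs and 9.78 ± 0.32 in normal and hyperplasia fibroblasts, a difference of -1.23 (SE 0.26, 95% interval -1.80 to -0.66, adjusted p = 0.0070).

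The chemokine receptor *Ackr3* separated the groups as well. Its levels were 8.44 and 8.81 in normal arrays, 8.98, 9.16 and 8.15 in hyperplasia, 7.64, 6.71 and 8.01 in carcinoma, and 6.93, 6.98 and 7.42 in advanced carcinoma. It averaged 7.28 ± 0.50 in CAFs and 8.71 ± 0.41 in normal and hyperplasia fibroblasts, lower by 2.68-fold (log2 difference -1.42, SE 0.25, limma adjusted p = 0.0028). *Clec3b*, the plasminogen-binding protein, measured 9.52 and 9.85 in normal arrays, 10.17, 10.10 and 9.63 in hyperplasia, 8.83, 7.25 and 9.10 in carcinoma, and 8.07, 7.92 and 8.46 in advanced carcinoma. The highest CAF array of *Clec3b* (carcinoma D10) was thus below the lowest of the others (normal D2). Its difference was -1.58 (SE 0.29, adjusted p = 0.0035).

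*Sema3c* had the third largest difference. It measured 11.14 and 11.26 in normal arrays, 11.52, 11.72 and 10.84 in hyperplasia, 10.51, 9.04 and 10.89 in carcinoma, and 9.10, 9.43 and 9.82 in advanced carcinoma. Carcinoma D10, at 10.89, exceeded hyperplasia D12, at 10.84, so that the groups overlapped by 1 array, and the mean was 9.80 ± 0.76 in CAFs and 11.30 ± 0.34 in the others (difference -1.50, SE 0.33, limma adjusted p = 0.0089). *Dpp4*, the surface peptidase CD26, measured 10.78 and 10.83 in normal arrays, 11.18, 11.33 and 10.67 in hyperplasia, 10.42, 9.20 and 10.70 in carcinoma, and 9.49, 9.47 and 9.95 in advanced carcinoma. Its advanced carcinoma arrays lay below all normal and hyperplasia arrays, while carcinoma D10 again passed hyperplasia D12. The difference of *Dpp4* was -1.09 (SE 0.26, adjusted p = 0.0132).

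The other 3 markers had smaller differences. *Anxa3* measured 11.03 and 11.13 in normal arrays, 11.34, 11.51 and 10.50 in hyperplasia, 10.43, 9.33 and 10.73 in carcinoma, and 9.87, 9.94 and 10.03 in advanced carcinoma, and its difference was -1.05 (SE 0.24, limma adjusted p = 0.0106). *Cd34* measured 11.71 and 11.997 in normal arrays, 12.17, 12.21 and 11.83 in hyperplasia, 11.61, 10.44 and 11.72 in carcinoma, and 10.86, 10.99 and 11.36 in advanced carcinoma, with a difference of -0.82 (SE 0.21, adjusted p = 0.0181). *Cd55* measured 9.57 and 9.58 in normal arrays, 10.01, 10.35 and 9.34 in hyperplasia, 9.27, 8.28 and 9.66 in carcinoma, and 8.46, 8.70 and 9.02 in advanced carcinoma. In these 3 genes carcinoma D10 reached into the range of the normal and hyperplasia arrays, and for *Cd55* it was above both normal arrays. The *Cd55* difference of -0.87 (SE 0.26, adjusted p = 0.0308) lost its call when hyperplasia D6, hyperplasia D7, advanced carcinoma D8 or advanced carcinoma D9 was left out (adjusted p = 0.0718, 0.0760, 0.0668 and 0.0637). Mice carry a closely related gene, *Cd55b*, and probes of *Cd55* may read both.

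The markers shared the order of the arrays. Carcinoma D4 was the lowest of the 11 arrays for 9 of 9 markers, and carcinoma D10 was the highest CAF array for 9 of 9. Hyperplasia D7 was the highest array for 7 markers and hyperplasia D6 for the other 2. CAF arrays did not overlap with the others for 4 of 9 markers (*Pi16*, *Ackr3*, *Clec3b* and *Pi15*), where 7.14% of all genes were lower without overlap. Advanced carcinoma arrays lay below all 5 normal and hyperplasia arrays for 9 of 9 markers, where this held for 16.5% of all genes. The tie sets normal D2 and advanced carcinoma D11 on opposite sides, so these orders do not come from 11 independent arrays. The shares over all genes carry the same tie.

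The stages were then compared pair by pair in 1 fit with 4 stages, which share arrays between comparisons. Advanced carcinoma against hyperplasia gave 6 of 9 markers as lower (*Pi16*, *Dpp4*, *Sema3c*, *Ackr3*, *Clec3b* and *Pi15*; 6.01% of all genes were lower and 8.52% higher). With the tie term 5 of 9 were called, *Pi16* no longer among them (limma adjusted p = 0.0465, and 0.0885 with the term). *Pi15* averaged 6.43 ± 0.32 in advanced carcinoma and 9.78 ± 0.55 in hyperplasia (SD, n = 3 each), a difference of -3.35 (SE 0.57, limma adjusted p = 0.0076), and *Sema3c* differed by -1.91 (SE 0.44, adjusted p = 0.0218). The differences of *Cd34*, *Cd55* and *Anxa3* were -1.004, -1.17 and -1.17, with adjusted p of 0.0596, 0.0579 and 0.0567. This count rested on single arrays. It was 1 of 9 without hyperplasia D6, hyperplasia D7, advanced carcinoma D8 or advanced carcinoma D9. Without carcinoma D4 or carcinoma D10 it was 9 of 9, and these enter this comparison only through the shared estimate of the spread. Calls over all genes moved too, from 1199 lower in the main fit to 583 without hyperplasia D6 and 521 without hyperplasia D7. They were 297 without advanced carcinoma D8 and 286 without advanced carcinoma D9.

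Carcinoma against hyperplasia gave 2 of 9 markers as lower (4.37% of all genes were lower and 4.89% higher), *Pi15* at -2.55 (SE 0.57, limma adjusted p = 0.0285) and *Clec3b* at -1.57 (SE 0.42, adjusted p = 0.0498). The carcinoma arrays were widely spread, with an SD of 1.31 for *Pi15* against 0.55 in hyperplasia. With the tie term *Clec3b* lost its call (limma adjusted p = 0.0788). Neither tied array belongs to these stages, so the difference stayed at -1.57. Only the estimate of the spread changed, and the lost call is no check on the difference. Without carcinoma D10 the count was 6 of 9, and it was 0 of 9 without hyperplasia D6, hyperplasia D7, advanced carcinoma D8 or advanced carcinoma D9. It was 1 of 9 without normal D2, normal D5, carcinoma D3 or advanced carcinoma D11. Over all genes 871 were lower in the main fit and 1422 without carcinoma D10. They ranged from 131 to 455 in the left-out fits that gave 0 of 9, and from 436 to 618 in those that gave 1 of 9.

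Set against normal glands, advanced carcinoma gave 1 of 9 markers as lower, *Pi15* (1.71% of all genes were lower and 3.9% higher). It averaged 6.43 ± 0.32 in advanced carcinoma and 9.08 ± 0.33 in normal glands (SD, n = 3 and 2 arrays), a difference of -2.65 (SE 0.64, limma adjusted p = 0.0467), and its call was lost with the tie term (adjusted p = 0.0861). The other 8 differences ran from -1.75 for *Sema3c* (95% interval -2.86 to -0.64, adjusted p = 0.0718) to -0.79 for *Cd34* (-1.56 to -0.01, adjusted p = 0.2159). The count was 8 of 9 without carcinoma D4, 3 of 9 without carcinoma D10 and 1 of 9 without hyperplasia D12. It was 0 of 9 without any 1 of the other 8 arrays. Calls over all genes moved too: 341 genes were lower in the main fit, 1219 without carcinoma D4 and 433 without carcinoma D10. In the fits that gave 0 of 9 they ranged from 19 (without normal D5) to 228 (without hyperplasia D7). Both tied arrays, normal D2 and advanced carcinoma D11, enter this comparison. Carcinoma against normal glands gave 0 of 9 with limma and with contrasts of a one-way analysis of variance. With limma, 0.145% of all genes were lower and 0.792% higher at the adjusted threshold. At an unadjusted limma p under 0.05 the count was 5 of 9, where 3595 of 19938 genes passed in either direction. The differences in that comparison ran from -1.85 for *Pi15* to -0.51 for *Cd55*.

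No marker was called between hyperplasia and normal glands, or between the 2 carcinoma stages. Hyperplasia against normal glands gave 0 of 9 by either tool, and 0% of all genes in either direction with limma. At an unadjusted limma p under 0.05 the count was also 0 of 9, where 841 of 19938 genes passed. The differences ran from 0.03 for *Anxa3* (95% interval -0.86 to 0.93) to 0.70 for *Pi15* (-0.73 to 2.14). Advanced carcinoma against carcinoma likewise gave 0 of 9 by either tool, and 0% of all genes with limma. This comparison also gave 0 of 9 at an unadjusted limma p under 0.05, where 1124 of 19938 genes passed. Its differences ran from -0.80 for *Pi15* (-2.09 to 0.48) to -0.15 for *Pi16* (-1.02 to 0.71). With 2 or 3 arrays per stage these intervals leave room for differences of over 1 log2 unit in most markers, so the stages are not shown to be alike.

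The pan-fibroblast genes were used to see how the markers stood relative to the fibroblast genes of the same array. None of the 16 was called in CAFs by limma or by a 2-group analysis of variance. An unadjusted limma p under 0.05 was found for 5 of the 16, and for 7647 of all 19938 genes. All 16 pan-fibroblast genes, however, had differences below 0 (median -0.44, from -0.97 to -0.04). Each array was then centred on its mean over these genes, a scale chosen after the values had been seen and one that moves the median difference of all genes to 0.43. On it, 4 of 9 markers were lower in CAFs (0.612% of all genes were lower). These were *Pi15* at -2.20, *Clec3b* at -1.11, *Sema3c* at -1.03 and *Ackr3* at -0.96. *Pi16* had a difference of -0.76 (adjusted p = 0.1063), *Dpp4* of -0.62, *Anxa3* of -0.58, *Cd55* of -0.40 and *Cd34* of -0.35. With carcinoma D4 also left out, 8 of 9 markers were lower, all but *Cd55* (limma adjusted p = 0.0799). Calls over all genes rose as well, to 706 of 19938 lower, from 122 with carcinoma D4 kept.

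**Figure D2:**
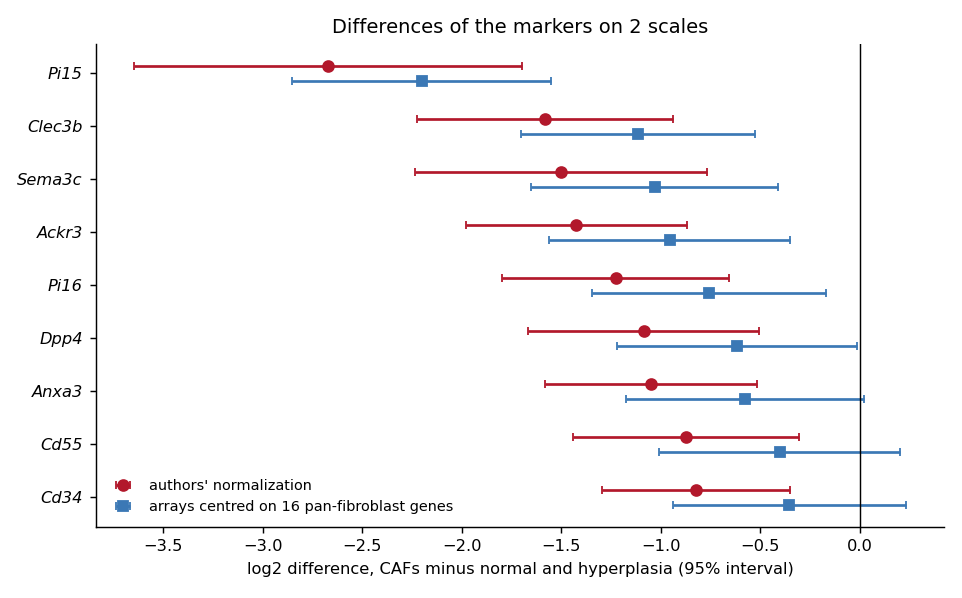
Log2 difference (x axis) of CAFs minus normal and hyperplasia fibroblasts for the 9 markers (y axis), with 95% intervals, on the authors' normalization (red circles) and with arrays centred on 16 pan-fibroblast genes (blue squares). The centred differences are all nearer to 0, and *Anxa3*, *Cd55* and *Cd34* then have intervals that include 0.

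Within single arrays, the mean of the 9 markers minus that of the pan-fibroblast genes was lowest in the 3 advanced carcinoma arrays. It was -0.59 and -0.87 in normal arrays D2 and D5, -0.48, -0.29 and -1.10 in hyperplasia D6, D7 and D12, -1.35, -1.11 and -1.07 in carcinoma D3, D4 and D10, and -2.09, -2.01 and -1.72 in advanced carcinoma D8, D9 and D11. On this measure carcinoma D4 lay between the other 2 carcinoma arrays, and hyperplasia D12 lay within the range of carcinoma.

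Other genes reported for this progenitor state had differences below 0 for 27 of 29. This list and the other gene lists were chosen with earlier results of these data known, so their direction is not independent evidence. Of the 29 measured, 20 were lower in CAFs and 0 higher (18 lower with the tie term), with a median difference of -0.98. On the pan-fibroblast scale 9 were lower and 1 higher. The smallest p-values belonged to *Bmp7*, a secreted growth factor, at -1.58 (SE 0.18, limma adjusted p = 0.0003), *Smpd3*, a neutral sphingomyelinase, at -2.67 (SE 0.44, adjusted p = 0.0019), and *Scara5*, a ferritin receptor, at -1.62 (SE 0.30, adjusted p = 0.0035). *Smpd3* measured 8.64 and 8.90 in normal arrays, 9.48, 9.66 and 8.14 in hyperplasia, 7.20, 5.69 and 7.60 in carcinoma, and 5.51, 5.42 and 6.38 in advanced carcinoma, without overlap between CAFs and the others. The 2 genes of this list with differences above 0, named after their values were seen, were the alarmin *Il33* at 0.45 (adjusted p = 0.3042) and the hyaluronan synthase *Has1* at 0.33 (adjusted p = 0.6629).

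**Figure D3:**
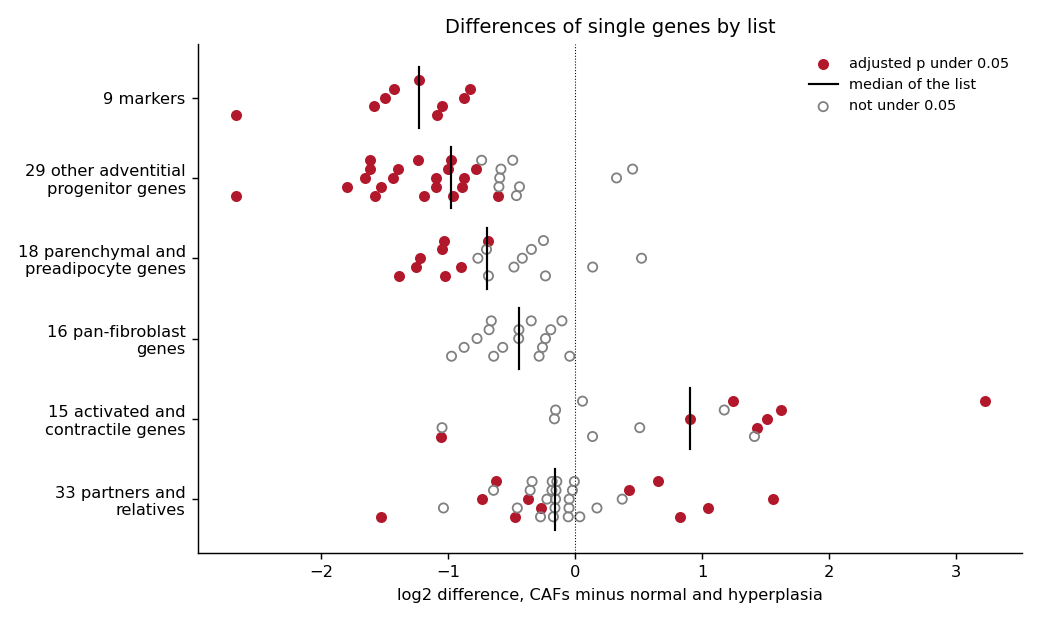
Log2 differences (x axis) of CAFs minus normal and hyperplasia fibroblasts for single genes of 6 lists (y axis). Filled points had an adjusted p under 0.05, and bars mark each list's median, at -1.23 for the 9 markers, -0.98 for other adventitial progenitor genes, -0.69 for parenchymal and preadipocyte genes, -0.44 for pan-fibroblast genes, 0.90 for activated and contractile genes and -0.16 for partners and relatives.

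Lower levels were also found among genes of other resting fibroblasts. In a list of parenchymal fibroblast and preadipocyte genes, 8 of 18 were lower in CAFs and 0 higher, with a median of -0.69 (6 lower with the tie term, and 1 lower and 1 higher on the pan-fibroblast scale). *Pparg*, the adipogenic nuclear receptor, differed by -1.02 (SE 0.17, limma adjusted p = 0.0021) and *Fmo2*, a monooxygenase, by -1.38 (SE 0.27, adjusted p = 0.0050). *Lpl*, lipoprotein lipase, differed by -1.05 (SE 0.21, limma adjusted p = 0.0058). On the pan-fibroblast scale *Fmo2* kept its call, at -0.91 (limma adjusted p = 0.0482). *Pparg* and *Lpl* lost theirs there, at -0.56 and -0.58 (limma adjusted p = 0.2775 and 0.2424).

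Partners and relatives of the markers had calls in both directions, at shares near those of all genes. Of 33 measured, 5 were higher and 6 lower in CAFs, and the median was -0.16. Over all genes 12% were higher and 12.8% lower, so these counts single out no direction for the list. On the pan-fibroblast scale 4 were higher (*Nrp2*, *Cd59a*, *Crispld2* and *Anxa8*) and 1 lower (*Crispld1*), with a median of 0.31. On that scale 1611 of 19938 genes were higher and 122 lower. There *Plxna2* was at -0.0041 (limma adjusted p = 0.9909), and *Cd55b* and *Podxl2*, lower on the authors' scale, turned to 0.20 and 0.10 without a call. The values that follow are on the authors' scale. For *Sema3c*, the receptor *Nrp2* was higher by 0.65 while *Plxna1* and *Plxna2* were lower, at -0.62 and -0.47 (limma adjusted p = 0.0151, 0.0128 and 0.0038). For *Cd55*, the list held 3 membrane-bound complement regulators besides *Cd55b*. *Cr1l* and *Cd46* had differences of -0.14 and -0.05 (adjusted p = 0.0684 and 0.8617), and *Cd59a* was higher by 1.56 (SE 0.22, adjusted p = 0.0007), with 7.88 and 7.44 in normal arrays, 7.71, 6.997 and 8.06 in hyperplasia, 8.87, 8.91 and 8.95 in carcinoma, and 9.71, 9.59 and 9.06 in advanced carcinoma. Every CAF array of *Cd59a* was above all the others, opposite to *Cd55* in direction. For the CAP-domain proteins, *Crispld2* was higher by 0.82 and *Crispld1* lower, at -1.53 (adjusted p = 0.0051 and 0.0081). The ligand of *Ackr3*, *Cxcl12*, had a difference of -0.16 (adjusted p = 0.4037). *Anxa8*, of the annexin family, was higher by 1.05 (adjusted p = 0.0040), *Ly6e*, a relative of *Ly6a*, by 0.43 (0.0041), and *Dpp7*, *Podxl2* and *Cd55b* were lower, at -0.73, -0.37 and -0.26 (0.0101, 0.0064 and 0.0325). *Cd55b* was not called with the tie term (adjusted p = 0.05003). Of these genes, *Cd59a*, *Plxna2* and *Anxa8* have the smallest p-values of the list, and the others were named after their values were seen.

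The genes whose log2 values ran most closely with *Pi16* over the 11 arrays were *Emilin2* (an elastic fibre glycoprotein, also in the list of other adventitial progenitor genes; Pearson's r = 0.993), *Zfp385a* (0.991), *Ust* (0.991), *Pde8a* (0.990) and *Calhm2* (0.990). These values describe the same 11 arrays and the same stages, and carry no test. Among the markers, *Anxa3* was nearest to *Pi16* (0.989, rank 7) and *Pi15* farthest (0.958, rank 240). Predicted genes and small RNAs were left out of these ranks. *Emilin2* measured 9.03 and 9.39 in normal arrays, 9.36, 9.52 and 9.01 in hyperplasia, 8.54, 7.17 and 8.78 in carcinoma, and 7.72, 8.01 and 8.20 in advanced carcinoma, again lowest in carcinoma D4.

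Markers of other cell types moved with the same groups, in spite of the gate. All 12 macrophage genes were higher in CAFs (median difference 2.20, 11 of 12 with the tie term), and the sort marker *Adgre1* was higher by 2.32 (SE 0.50, limma adjusted p = 0.0072). The mean of the macrophage genes ranged from 6.25 to 8.18 in CAF arrays and from 4.71 to 6.12 in normal and hyperplasia arrays. Of 12 luminal epithelial genes 11 were higher (median 2.11), and their mean ranged from 8.70 to 9.86 in CAFs and from 6.18 to 7.97 in the others. *Epcam* was higher by 2.16 (SE 0.34, adjusted p = 0.0015) and *Pdgfra* had a difference of -0.66 (SE 0.28, adjusted p = 0.1105). Carcinoma D4, the lowest array for all 9 markers, had the highest luminal mean of the 11 arrays, at 9.86, and a macrophage mean of 7.77. Carcinoma D10, the highest CAF array for all 9 markers, had the lowest macrophage mean of the CAFs, at 6.25, and a luminal mean of 8.71. The part of these cells in the lower marker levels was not tested.

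**Figure D4:**
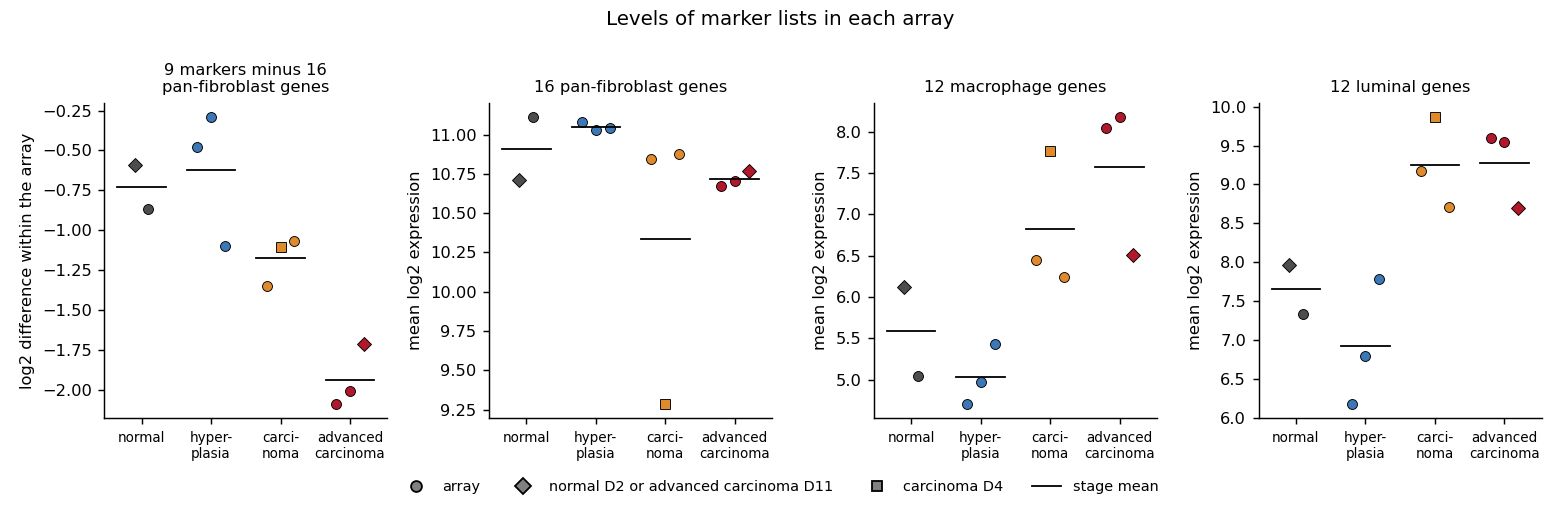
Level of gene lists in each array (y axis, log2) by stage (x axis), with lines at stage means. From left to right the panels show the mean of 9 markers minus that of 16 pan-fibroblast genes, then the means of 16 pan-fibroblast, 12 macrophage and 12 luminal genes. Carcinoma D4 (square) is far below the other arrays in pan-fibroblast genes, at 9.29, but lies between the other 2 carcinoma arrays in the first panel.

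Endothelial cells carry *Cd34* and *Ackr3* too. Of 12 endothelial genes 1 was called, *Tek*, lower, at -1.72 (SE 0.34, limma adjusted p = 0.0052), and the endothelial mean ranged from 6.07 to 7.26 in CAFs and from 6.23 to 7.33 in normal and hyperplasia arrays. The defining endothelial markers *Pecam1* and *Cdh5* had differences of -0.17 (adjusted p = 0.7857) and 0.52 (adjusted p = 0.3213). Of 7 pericyte genes, *Mcam* was higher by 1.64 and *Abcc9* lower, at -0.46 (limma adjusted p = 0.0011 and 0.0413). *Abcc9* lost its call with the tie term (adjusted p = 0.0597) and was at 0.0089 on the pan-fibroblast scale. Among T and NK cell genes 4 of 9 were lower and among B cell genes 3 of 5, and the tie term left 1 call in each list. The T and NK cell mean ranged from 5.23 to 6.71 in CAFs and from 5.96 to 8.32 in the others, with its highest value in hyperplasia D12, the lowest of the normal and hyperplasia arrays for 6 of the 9 markers. The B cell mean ranged from 5.67 to 7.11 in CAFs and from 6.63 to 8.38 in the others. The part of lymphocytes in the marker levels was not tested.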

How the data were processed

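Fibroblast RNA of 11 cohorts was hybridised to Affymetrix Mouse Gene 1.0 ST arrays. The deposited values are log2 expression that the authors made with the robust multi-average method (RMA) in Partek Genomics Suite 6.5, and a genome build is not given in the sources used here. Of 35399 probe sets, 21789 had 1 gene symbol, 1621 several and 11989 none here. Where several probe sets named the same gene (999 genes), only the one with the highest mean entered, for 19938 genes in all. Array medians ran from 5.28 to 5.39, and the number of arrays limits precision. Array quality, scan batches and raw intensities were not analysed here.

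Groups were taken from the labels. CAFs were compared with normal and hyperplasia fibroblasts in a fit with 2 groups, and stages in a fit with 4, with lmFit and eBayes of limma 3.58.1 in R 4.3.3 and Benjamini-Hochberg adjustment over 19938 genes within each comparison (threshold 0.05). P-values measure the spread between cohorts. In the fit with 2 groups this spread also holds the differences between the stages, ages and genotypes joined in a group. The fits treat the 2 tied arrays as independent unless the tie term is named. The fits were tested on simulated data with known differences. The simulated arrays were independent and equally spread, without the tie or an array like carcinoma D4. The simulation thus does not show how the p-values behave under these features. Alternatives were the term for the tied arrays, leaving both out, quantile or median scaling, removal of dim genes, and every probe set. Others were one-way analysis of variance without eBayes, trended eBayes, array weights, the arrays of 2 stages alone, and leaving out each array. The analysis of variance had 4 groups for contrasts between stages. For CAFs against normal and hyperplasia it had 2 groups, so there it is not a contrast over the 4 stages. Centring on the pan-fibroblast genes, with and without carcinoma D4, was added after seeing the data.

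Named genes are the markers, the 3 smallest p-values of each other list, the sort markers, defining markers of other cell types and the 5 genes nearest to *Pi16* by Pearson's r, predicted genes and small RNAs left aside. Markers and lists were chosen with earlier results of these data known, so their direction is not independent evidence. Promoters are RefSeq sequences of GRCm38.p6, matched by gene.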

Additional observations from a re-analysis of the deposited data

How the results depend on the processing

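Against normal and hyperplasia fibroblasts, CAFs had 9 of 9 markers lower under most alternatives. The count was 8 of 9 without normal D2 and advanced carcinoma D11, and with the 2-group analysis of variance. It was 8 to 9 when single arrays were left out, and 4 of 9 with arrays centred on the pan-fibroblast genes. Over all genes this comparison had 2402 higher and 2559 lower, 1965 and 4898 with median-centred arrays, 1611 and 122 centred on the pan-fibroblast genes, and 3820 and 706 when carcinoma D4 was also left out. For advanced carcinoma against normal glands (1 of 9), the count was 0 with the term for the 2 tied arrays, without them, with quantile normalization and with analysis of variance contrasts, 9 with array weights or the arrays of the 2 stages only, 8 with pan-fibroblast centring and no carcinoma D4, and 0 to 8 with single arrays left out. For advanced carcinoma against hyperplasia (6 of 9), it was 2 without the tied arrays and with analysis of variance contrasts, 3 with pan-fibroblast centring, and 1 to 9 with single arrays left out. For carcinoma against hyperplasia (2 of 9), it was 1 with the term, quantile normalization, pan-fibroblast centring or every probe set, 0 without the tied arrays, with analysis of variance contrasts or the 2 stages only, 4 with array weights, and 0 to 6 with single arrays left out. For advanced carcinoma against carcinoma (0 of 9), array weights gave 3, with 913 genes higher and 388 lower (0 each in the main fit). Lower calls over all genes moved as well. For advanced carcinoma against normal glands there were 341 in the main fit, 1629 with array weights and 1125 with the 2 stages only. Pan-fibroblast centring without carcinoma D4 gave 534, and quantile normalization 391. For carcinoma against hyperplasia there were 871, 1677 with array weights and 5 with the 2 stages only. The cause was not tested.

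Signs turned only in differences that were not called. For hyperplasia against normal glands, *Pi16*, *Anxa3* and *Ackr3* were at -0.032, -0.013 and -0.048 without the tied arrays, and at -0.036, -0.107 and -0.0024 with pan-fibroblast centring (with or without carcinoma D4). With single arrays left out they ranged from -0.090 to 0.335, -0.161 to 0.341 and -0.060 to 0.446, and *Sema3c* from -0.021 to 0.418, lowest without hyperplasia D7 and highest without hyperplasia D12. *Anxa3* was at -0.0044 with quantile normalization. For carcinoma against normal glands *Cd55* was at 0.065 with pan-fibroblast centring. For advanced carcinoma against carcinoma, *Pi16* ranged from -0.651 to 0.169, *Cd34* from -0.594 to 0.043, *Anxa3* from -0.638 to 0.061 and *Clec3b* from -0.816 to 0.109, lowest without carcinoma D4 and highest without carcinoma D10. No paired analysis was possible because the groups share no array numbers. No array was outlying by Dixon's criterion in 18 sets of values (9 markers, in CAFs and in normal with hyperplasia).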

Other observations

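Genes of activated and contractile fibroblasts went the other way from the progenitor markers in part. Of 15 measured, 6 were higher and 1 lower in CAFs (median 0.90), and 9 were higher and 0 lower on the pan-fibroblast scale. The 6 were *Col11a1*, *Col12a1*, *Tnc*, *Inhba*, *Mmp13* and *Saa3*. The contractile genes *Acta2* and *Tagln* were not called on the authors' scale, at 0.14 and 0.51 (limma adjusted p = 0.7149 and 0.1453). *Col11a1*, a fibrillar collagen, was higher by 1.43 (SE 0.16, limma adjusted p = 0.0003), *Saa3*, an acute-phase protein, by 1.24 (SE 0.17, adjusted p = 0.0006), and the myosin light chain *Myl9* was lower, at -1.05 (SE 0.16, adjusted p = 0.0013). Among adipocyte genes 4 of 8 were lower and 0 higher, with *Fabp4* at -1.36 (adjusted p = 0.0070), and 0 of 8 were called on the pan-fibroblast scale.

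Of 6 basal epithelial genes 3 were higher, *Trp63* by 0.67, *Krt5* by 1.55 and *Krt14* by 1.31 (limma adjusted p = 0.0047, 0.0156 and 0.0179). Of 9 neutrophil genes 1 was higher, *Ltf* by 2.91 (adjusted p = 0.0004), a gene that mammary epithelium also expresses. Of 7 mast cell genes *Kit*, also expressed by mammary epithelium, was higher by 2.30 (adjusted p = 0.0018), while *Cpa3* and *Tpsb2* were lower, at -1.81 and -0.50 (adjusted p = 0.0449 and 0.0473) and lost their calls with the tie term.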
